A study of Rattus norvegicus with 19 samples.

Results

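The growth cone and axon growth genes described here are Gap43, Basp1, Stmn2, Stmn4, Dpysl2, Dpysl3, Crmp1, Tubb3, Mapt and Map1b. They were taken as every probe set whose platform gene symbol is one of these 10 names, which gave 10 of the 14217 genes named on the array, through 19 of the 31042 probe sets tested. A probe set is a group of short oligonucleotides that together read 1 transcript. The study took the T11 dorsal root ganglion, where sensory neurons of 1 trunk segment have their somata, after the skin around the T11 territory had been denervated. In this model the uninjured T11 axons sprout collaterals into that skin. The rats were adult female Sprague-Dawley animals, and there were 7 at day 14, 7 at day 7 and 5 naive rats without surgery. In the operated rats the dorsal and lateral cutaneous nerves of T9, T10, T12 and T13 were cut on 1 side, and T11 was left intact. Each array held the RNA of a single T11 ganglion of 1 rat, amplified in 2 rounds. Naive rats had no operation at all, so an effect of the surgery and an effect of the denervation cannot be told apart.

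A growing axon ends in a growth cone, in which actin filaments probe the surroundings and microtubules from the shaft follow. Gap43 and Basp1 are membrane-bound substrates of protein kinase C that act on actin at the growth cone membrane, stathmins and collapsin response mediator proteins regulate the supply and assembly of tubulin, and Mapt and Map1b bind and stabilise microtubules. In sensory ganglia these genes are known from regeneration after nerve injury, in which Gap43 is among the classic genes of the regrowing axon.

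The neuron markers, 12 of 12 measured, had similar means in the 3 groups. Their mean log2 level was 11.35 ± 0.08 on day 14 (SD, n = 7), 11.33 ± 0.09 on day 7 (SD, n = 7) and 11.33 ± 0.04 in naive rats (SD, n = 5). Arrays correlated with each other between 0.987 and 0.997, and the number of arrays limits the precision. Skeletal muscle transcripts varied from rat to rat, and their list mean spanned 6.82 to 8.76 on day 14, 6.71 to 10.02 on day 7 and 6.88 to 10.53 in naive rats. Without the highest array of each group the number of growth genes that passed the test was the same, 0 in every comparison. Of 27 exact permutation tests of cell type markers, axotomy-induced genes and 3' over 5' signal, 5 had an unadjusted p under 0.05 and 0 passed after adjustment, with a smallest adjusted p of 0.0682. The 5 were the axotomy-induced genes, higher on day 14 and on day 7 than in naive rats, the Schwann cell markers, lower on day 7 than on day 14 or in naive rats, and the fibroblast markers, higher on day 14 than on day 7. The animal codes in the labels begin with AI, AJ or AK, and what the letters stand for is not given in the sources used here. Day 14 held 5 AI and 2 AJ rats, day 7 held 5 AJ and 2 AK rats, and the naive group held 2 AJ and 3 AK rats. All AI rats were thus of day 14, and within 1 code day 14 can be compared with the other groups only through its 2 AJ rats, replicates 3 and 4. A difference of the other 5 rats of day 14 and a difference of the AI code cannot be told apart.

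For none of the 10 genes did a difference between group means pass the test. By limma with Benjamini-Hochberg adjustment over all 31042 probe sets, 0 of 19 member probe sets passed an adjusted p of 0.05 on day 14 against naive, where 43 probe sets or 0.139% of the array passed. With the animal code as a block 0 of 19 members and 0 of all probe sets passed. On day 7 against naive, 0 of 19 member probe sets and 0% of the array passed, with 1 member, Basp1, and 8.7% of the array at an unadjusted p under 0.05. Between day 14 and day 7 the counts were again 0 of 19 and 0%, with 1 member, the low-signal Tubb3 probe set, and 11.3% of the array at an unadjusted p under 0.05. With both days together against naive, 0 of 19 members and 0.0193% of the array passed, with 2 members, of Basp1 and Stmn2, and 14.7% of the array at an unadjusted p under 0.05. In simulated data of the day 14 comparison, the same test recovered 13.5% of probe sets changed by 0.25 on the log2 scale, 80.5% of those changed by 0.5 and 98.5% of those changed by 1. The changed probe sets were 200 drawn from the whole array, where the median SE was 0.08. Member SEs ran from 0.04 to 0.29, so these rates do not hold for each member.

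The members' small differences lay mostly above 0. On day 14 the difference from naive was above 0 for 16 of 19 member probe sets, with a median of 0.09 on the log2 scale, against 56.4% and a median of 0.02 over all probe sets. On day 7 the difference was above 0 for 12 of 19 members, with a median of 0.02, against 53.0% and 0.01 over all probe sets. At an unadjusted p under 0.05, 1 member probe set, the brighter one of Basp1, was higher and 0 were lower on day 14, where 19.7% of all probe sets had such a p, 10.9% higher and 8.79% lower. Differences between probe sets of 1 gene share the same RNA and are not independent.

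**Figure D1:**
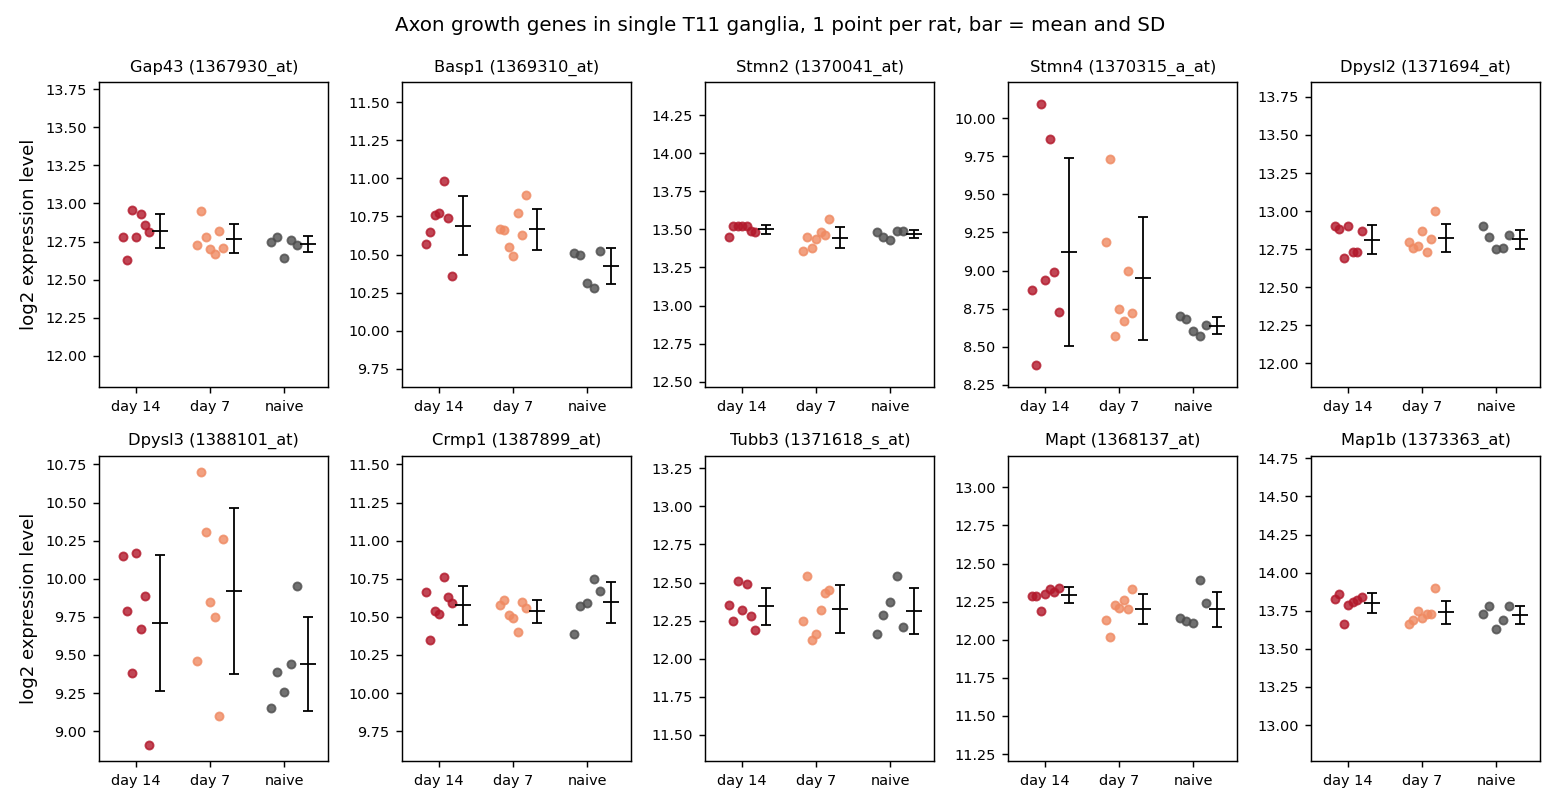
Log2 level of the probe set with the highest mean for each of the 10 genes, with 1 point per rat, the groups day 14 (n = 7), day 7 (n = 7) and naive (n = 5) from left to right, and bars at the group mean with 1 SD. The Stmn4 panel shows operated rats as high as 10.09, above a naive range of 8.57 to 8.70, while the naive, day 7 and day 14 points of Stmn2 and Dpysl2 overlap.

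Basp1, the brain acid-soluble protein that resembles Gap43 in its binding to membrane and calmodulin, came nearest to a change. The log2 level of its brighter probe set was 10.36, 10.74 and 10.98 on day 14 as the lowest, the median and the highest rat, and 10.49, 10.66 and 10.89 on day 7, against 10.51, 10.50, 10.31, 10.28 and 10.52 in the naive rats. On each day 6 of 7 rats lay above every naive rat, as for 3.95% of all probe sets on day 14 and 1.03% on day 7. With both days together 12 of 14 operated rats did so, as for 0.651% of all probe sets. Basp1 was 0.27 ± 0.09 higher on day 14 (log2 difference ± SE, adjusted p = 0.134 by limma) and 0.24 ± 0.09 higher on day 7 (adjusted p = 0.460). For both days together the difference was 0.25 ± 0.08, a fold of 1.19 with a 95% interval of 1.06 to 1.34 (adjusted p = 0.184), so the test was not passed. The second Basp1 probe set, of low signal, differed by 0.15 on day 14 and 0.02 on day 7, and the 2 probe sets did not follow each other from rat to rat (r = 0.02 over 19 arrays).

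Gap43, the growth-associated protein carried into growing axon tips, differed little between the groups. Its log2 level was 12.63, 12.81 and 12.96 on day 14 and 12.67, 12.73 and 12.95 on day 7 (lowest, median and highest), against 12.75, 12.78, 12.64, 12.76 and 12.73 in the naive rats. The groups overlapped, and the highest operated rats lay above the highest naive one. The difference from naive was 0.09 ± 0.06 on day 14 (adjusted p = 0.410) and 0.03 ± 0.06 on day 7 (adjusted p = 0.908). The 95% interval of the fold on day 14 was 0.976 to 1.16, which is -0.04 to 0.21 as a log2 difference. With the animal code as a block the Gap43 log2 difference on day 14 was 0.21 (adjusted p = 0.755 by limma), near the upper end of that log2 interval. Among AJ rats alone it was 0.17. A second Gap43 probe set had a mean of only 3.92 and gave no usable second reading. Whole ganglia were measured, so fewer cells of a type and less RNA per cell cannot be told apart.

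Stmn4, a neural member of the stathmins, which bind free tubulin and destabilise microtubules, stood out by its spread. Its log2 level was 8.38, 8.94 and 10.09 on day 14 and 8.57, 8.75 and 9.73 on day 7, against 8.70, 8.68, 8.60, 8.57 and 8.64 in the naive rats. The naive rats lay within a narrow band, and 6 of 7 rats on day 14 were above it, as for 3.95% of all probe sets. On day 7, 5 of 7 rats were above the naive band of Stmn4, and 1 rat on day 14 was below it. The SD was 0.62 on day 14 and 0.41 on day 7, against 0.06 in naive rats. Its spread within groups exceeded that of 98.5% of all probe sets. The mean difference was 0.48 ± 0.24 on day 14 (fold 1.40, 95% interval 0.990 to 1.97, adjusted p = 0.267) and 0.31 ± 0.24 on day 7 (adjusted p = 0.750). Without the highest day 14 rat, replicate 3, the day 14 difference of Stmn4 was 0.32. With the animal code as a block it was 1.06 (adjusted p = 0.616), and among AJ rats alone, where replicate 3 is 1 of 2 rats of day 14, it was 0.86.

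Stmn2, the growth-associated stathmin also called SCG10, did not pass in either of its probe sets. The brighter one read 13.45, 13.52 and 13.52 on day 14 and 13.36, 13.45 and 13.57 on day 7, against 13.43 to 13.49 in naive rats. The groups overlapped, and the difference from naive was 0.03 ± 0.04 on day 14 and -0.02 ± 0.04 on day 7, with a fold interval of 0.962 to 1.09 on day 14. The spread of this probe set within groups was smaller than that of all but 0.238% of probe sets, but its level lay near the highest value on any array, 14.02, where array signals can compress, which was not tested. The second Stmn2 probe set had a spread at the 12.6th percentile and was 0.11 higher on day 14 and 0.12 higher on day 7, with an unadjusted p of 0.038 for both days together by limma.

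The collapsin response mediator proteins, cytosolic proteins that carry tubulin dimers and relay semaphorin signals, had no member that passed the test. Dpysl2 (CRMP2) differed from naive by 0.00 on day 14 and 0.01 on day 7, with a fold interval on day 14 of 0.920 to 1.08. Crmp1 differed by -0.02 on day 14 and -0.06 on day 7. Dpysl3 (CRMP4) had a wide spread, with log2 levels of 8.91 to 10.17 on day 14 and 9.10 to 10.70 on day 7, against 9.15 to 9.95 in naive rats. Its difference was 0.27 ± 0.24 on day 14 (adjusted p = 0.544) and 0.48 ± 0.24 on day 7 (adjusted p = 0.599), while the second Dpysl3 probe set differed by 0.05 on day 14 and -0.03 on day 7. The wide spread of Dpysl3 was thus seen in 1 of its 2 probe sets.

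Tubb3, the neuronal class III beta tubulin, and the microtubule-associated proteins passed no test either. Tubb3 read 12.19, 12.32 and 12.51 on day 14 and 12.12, 12.32 and 12.54 on day 7, against 12.16, 12.29, 12.37, 12.54 and 12.21 in naive rats. The 3 groups covered nearly the same range, and the difference from naive was 0.03 on day 14 and 0.01 on day 7. With the animal code as a block the Tubb3 difference on day 14 was 0.20 (adjusted p = 0.840 by limma). Its brighter probe set is of a type that can also match related transcripts, so other tubulins may add to it. Mapt, the axonal protein tau, differed by 0.09 on day 14 and 0.00 on day 7, with 0.02 and 0.11 on day 14 in its other probe sets. Map1b, a large microtubule-binding protein of developing and regrowing axons, differed by 0.08 ± 0.05 on day 14 (adjusted p = 0.384 by limma) and 0.02 on day 7. On day 14, 6 of 7 rats lay above the highest naive rat, as for 3.95% of all probe sets. The level of this Map1b probe set, up to 13.90, lay near the highest value on any array, 14.02, as for Stmn2, and compression was not tested. A dimmer Map1b probe set differed by 0.54 ± 0.29 on day 14, but the naive rats alone spanned 6.86 to 8.57 there.

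**Figure D2:**
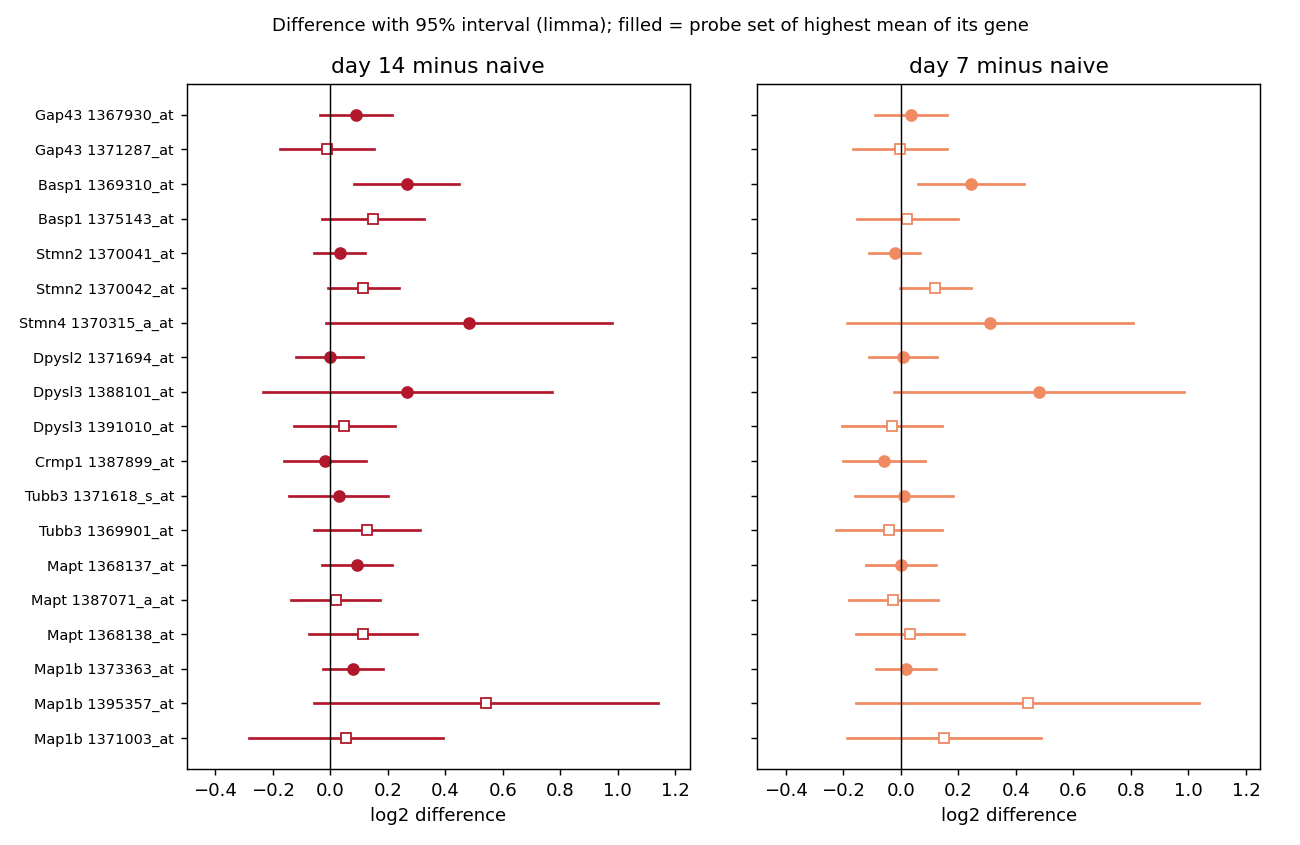
Log2 difference from naive for each of the 19 member probe sets on day 14 and on day 7, with 95% intervals from limma. The intervals of the brighter Basp1 probe set lie above 0 on both days, with 0.27 on day 14 and 0.24 on day 7, and all other intervals include 0.

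Other genes of the growth cone and the axonal cytoskeleton passed no test either. Of 109 listed genes in 7 groups (other stathmins and mediator proteins, other tubulins, microtubule-associated proteins, growth cone membrane proteins, actin regulators, kinases and GTPases, and RNA-binding proteins) 96 were measured, and 0 passed in either direction in any of the 4 comparisons. On day 14, 6 were higher and 8 lower at an unadjusted p under 0.05, together 14.6% of the 96 against 19.4% of all genes, and 54 of 96 differences were above 0, against 50.7% of all genes. The median over the 96 genes was 0.01 on day 14, against 0.00 over all genes. The highest and lowest day 14 differences of each group are given next, and none of them passed. Among stathmins and mediator proteins these were 0.03 for Stmn3 and -0.19 for Dpysl4, among tubulins 0.14 for Tuba4a and -0.03 for Tubb4a, and among microtubule-associated proteins 0.16 for Apc, which binds microtubule ends, and -0.29 for Map1s, a relative of Map1b. Among membrane proteins they were 0.21 for Marcks, another protein kinase C substrate, and -0.23 for Plppr3, and among actin regulators 0.26 for Arpc1b, a subunit of the Arp2/3 complex that nucleates actin branches, and -0.24 for Evl, a relative of Enah and Vasp. Kinases and GTPases spanned 0.27 for Pak3, a p21-activated kinase (adjusted p = 0.119), to -0.09 for Rhoa, and RNA-binding proteins 0.06 for Elavl3 to -0.39 for Fmr1, a regulator of translation (adjusted p = 0.172). Genes known to be induced by axotomy lay higher, with 16 of 16 above naive on both days. Of all genes 50.7% were above naive on day 14 and 48.7% on day 7. The list was chosen with earlier results of these data known, so its count is no independent test. The 16 genes had a median difference of 0.73 on day 14 and 0.71 on day 7, although 0 of 16 passed singly. Their highest day 14 difference was 3.04 for Csrp3, a muscle LIM protein (adjusted p = 0.0931), and their lowest 0.07 for the cytokine Il6.

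The mean log2 level of the 16 axotomy-induced genes (Atf3, Jun, Sox11, Sprr1a, Gal and others) was used to ask which growth genes vary with them between operated rats. This comparison was chosen after the data had been seen. The list mean was 7.34, 8.22 and 9.49 on day 14 and 7.23, 7.90 and 9.16 on day 7, against 7.05 to 7.28 in naive rats. Operated rats ranged from the naive level to far above it. The widest gap between neighbouring rats was 0.49 in a range of 2.26, and whether the rats form clusters was not tested. The 3 highest were day 14 replicate 3, day 7 replicate 2 and day 14 replicate 5, all above the next rat at 8.52. Those 3 rats also had the highest Stmn4 levels, 10.09, 9.73 and 9.86, and the highest Gap43 levels, 12.96, 12.95 and 12.93, and their Tubb3 levels were 12.51, 12.54 and 12.49. Their Basp1 levels of 10.76, 10.66 and 10.98 lay within the range of the other operated rats, except for the highest. Naive replicate 4 also had a Tubb3 level of 12.54, although its list mean of 7.05 was the lowest of all rats.

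Stmn4 and Tubb3 followed the axotomy-induced genes from rat to rat among the operated rats. Over the 14 operated arrays, with group means removed, Stmn4 had a Pearson r of 0.88 with the list mean (permutation p = 5e-05, 0.0015 after adjustment over 30 relations) and a Spearman rho of 0.89 (adjusted permutation p = 0.009). Tubb3 had r = 0.84 (permutation p = 0.00051, adjusted 0.0073) and rho = 0.80 (adjusted permutation p = 0.0192). Without the 2 arrays farthest from the median, day 14 replicate 3 and day 7 replicate 2, r was 0.76 for Stmn4 and 0.74 for Tubb3 (permutation p = 0.00414 and 0.0112). Within day 14 alone (n = 7) r was 0.93 for Stmn4 and 0.95 for Tubb3 (exact p = 0.0030 and 0.0026), and within day 7 alone (n = 7) it was 0.83 and 0.77 (exact p = 0.013 and 0.052). Of all 31042 probe sets 1.52% had an r of at least 0.7, and 3 of 19 member probe sets did, the brighter ones of Gap43, Stmn4 and Tubb3. The second Tubb3 probe set, of low signal, had r = 0.08.

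Gap43 and Basp1 followed less firmly. Gap43 had r = 0.71 with the list mean (permutation p = 0.00598, adjusted 0.0299), but rho = 0.63 (adjusted permutation p = 0.0762). Without day 14 replicate 3 and day 7 replicate 2 its r was 0.46 (permutation p = 0.157), and it did not pass. Those 2 rats had the highest list means, so leaving them out also narrowed the range of the list mean. Basp1 had r = 0.62 (adjusted permutation p = 0.0748), and 0.78 without those 2 rats. With Atf3 alone, the injury transcription factor, in place of the list, r was 0.87 for Tubb3, 0.84 for Stmn4, 0.73 for Gap43 and 0.62 for Basp1. For Gap43 that relation passed by r and by rho (adjusted permutation p = 0.0138 and 0.0487 over 10 relations), and r was 0.64 without the 2 rats farthest from the median of Atf3 (permutation p = 0.0396). Within day 14 alone (n = 7) Gap43 had r = 0.80 with the list mean, and within day 7 alone 0.61 (exact p = 0.032 and 0.145, not adjusted). Stmn2, Dpysl2, Dpysl3, Crmp1, Mapt and Map1b did not pass against the list mean over the 14 arrays. Within day 14 alone (n = 7) Map1b had r = -0.84 and rho = -0.93 (exact p = 0.00377 and 0.00675, not adjusted), while within day 7 alone its r was 0.02 (exact p = 0.969). Crmp1 had r = 0.63 without day 14 replicate 3 and day 7 replicate 2 (permutation p = 0.0375), and rho = 0.79 within day 7 alone (exact p = 0.048). Without the 2 operated arrays high in muscle transcripts, day 14 replicate 2 and day 7 replicate 7, Mapt had r = -0.84, Map1b r = -0.70 and Gap43 r = 0.75 (permutation p = 0.00129, 0.0107 and 0.00859, not adjusted). Among the operated rats, the codes AI with 5 rats and AK with 2 were below the 6 rats taken as the least for a correlation. Within AJ (n = 7), r was 0.72 for Stmn4, 0.75 for Tubb3 and 0.43 for Gap43 (exact p = 0.071, 0.117 and 0.488), so these relations did not pass among those 7 rats.

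**Figure D3:**
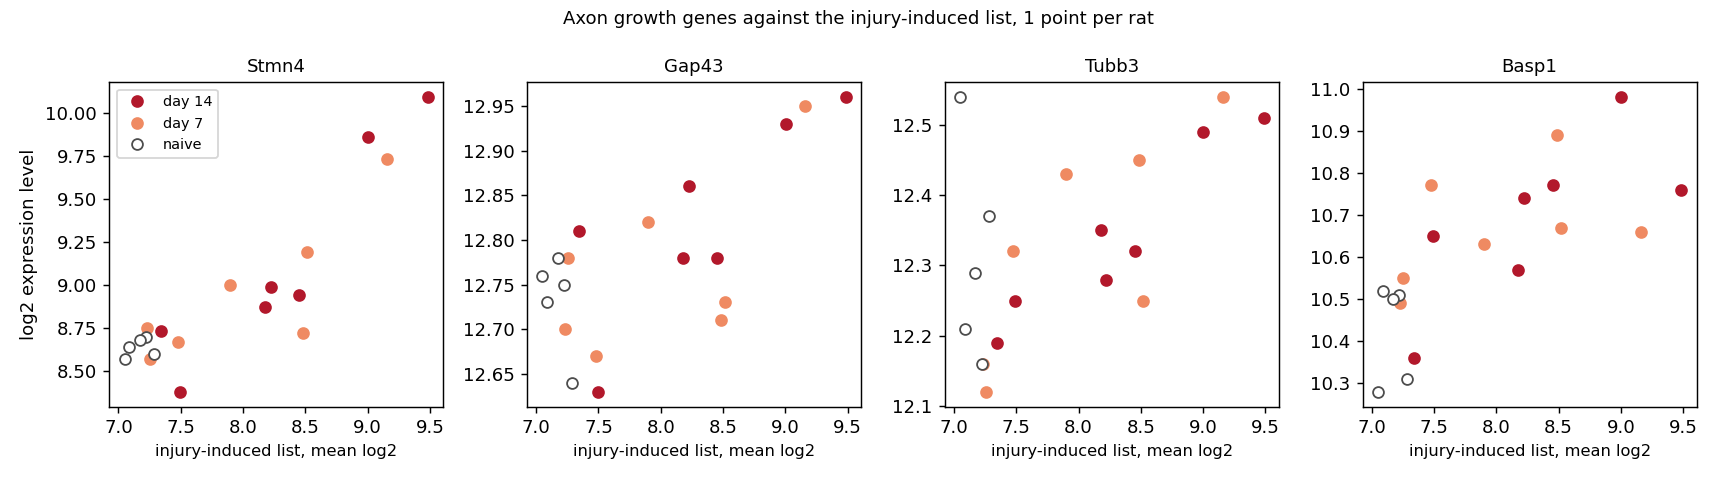
Level of Stmn4, Tubb3, Gap43 and Basp1 against the mean level of the 16 axotomy-induced genes, both on the log2 scale, with 1 point per rat and the groups day 14, day 7 and naive marked. Operated rats with a higher list mean have higher Stmn4 and Tubb3, with r = 0.88 and 0.84 over the 14 operated rats.

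Map1b and Mapt had a high r with the neuron markers, which held by rank within day 7 but not within day 14. Over the same 14 arrays Map1b had r = 0.91 with the mean of the 12 markers (permutation p = 0.00233, adjusted 0.0175) and rho = 0.75 (adjusted permutation p = 0.0562), and Mapt had r = 0.80 (adjusted permutation p = 0.0073) and rho = 0.60 (adjusted permutation p = 0.104). Without day 14 replicate 3, the lowest in neuron markers, and day 7 replicate 7, the highest, r was 0.68 for Map1b (permutation p = 0.112) and 0.66 for Mapt (permutation p = 0.0303), so Map1b no longer passed. Group means were not taken again for the arrays left. A shift between the days can thus enter both r, and their sizes are not compared. Within day 7 alone (n = 7) Map1b had r = 0.89 and rho = 0.79 (exact p = 0.025 and 0.048), and Mapt r = 0.84 and rho = 0.89 (exact p = 0.020 and 0.012). Within day 14 alone (n = 7) the ranks did not follow, with r = 0.94 but rho = 0.50 for Map1b (exact p = 0.034 and 0.267) and r = 0.82 but rho = -0.11 for Mapt (exact p = 0.136 and 0.840). On day 14 replicate 3 was lowest in both genes and in the markers. Stmn4 ran the other way, with r = -0.69 (adjusted permutation p = 0.0183) and rho = -0.64 (adjusted permutation p = 0.0673). Gap43 lay close to Stmn4 but did not pass, with r = -0.645 (adjusted permutation p = 0.0748) and rho = -0.65 (adjusted permutation p = 0.0673). Dpysl2 had r = 0.68 (adjusted permutation p = 0.0576) and did not pass either. Of all probe sets 4.94% had an r of at least 0.7 with the neuron markers, and 5 of 19 member probe sets did, all of Mapt or Map1b. Neuron markers and axotomy-induced genes did not pass a test against each other (r = -0.38, permutation p = 0.200). The part of neuron content in these relations was not tested. No relation to the macrophage markers passed.

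**Figure D4:**
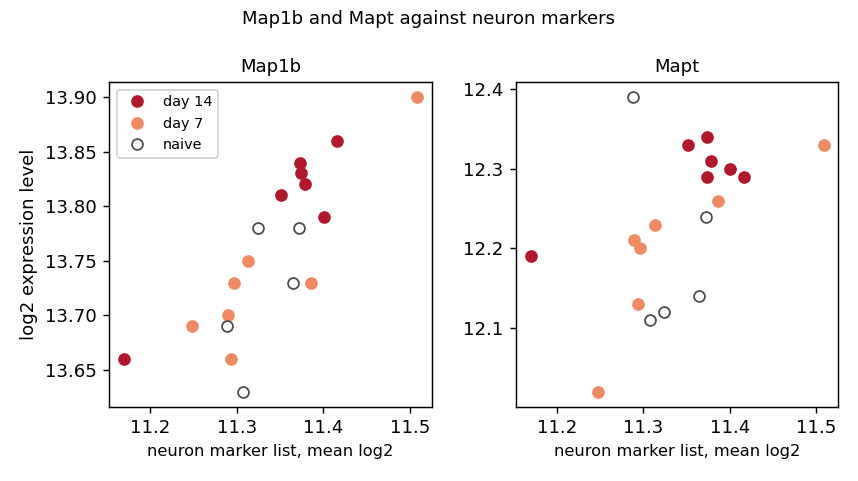
Level of Map1b and Mapt against the mean level of 12 neuron markers, both on the log2 scale, with 1 point per rat and the groups day 14, day 7 and naive marked. Day 14 replicate 3 has the lowest neuron marker mean, 11.17, and day 7 replicate 7 the highest Map1b level, 13.90, and r is 0.91 for Map1b and 0.80 for Mapt over the 14 operated rats.

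Among the members themselves, Gap43 followed Stmn4. Over 19 arrays with group means removed, r was 0.84 (permutation p = 0.00023, adjusted 0.00207 over 9 relations) and rho 0.72 (adjusted permutation p = 0.0124), and r was 0.74 without day 14 replicate 2 and day 7 replicate 2. The last r kept the deviations from the full group means, so a shift between groups can enter it. No other member passed, and the next were Crmp1 at 0.52 and Tubb3 at 0.49 (adjusted permutation p = 0.105 each). Of all genes, the most like Gap43 by r over the 19 arrays were Hspb1 (0.88), Csf2ra (0.84), Stmn4 (0.84), Dnaaf3 (0.83) and Cotl1 (0.82). Hspb1, a small heat shock protein, is itself one of the 16 axotomy-induced genes. Probe sets of 1 gene followed each other for Mapt, with r of 0.71, 0.81 and 0.53, and for Map1b, with r of 0.73, 0.63 and 0.57, while those of Gap43, Basp1, Stmn2, Dpysl3 and Tubb3 did not pass.

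Over the 14 operated rats Tubb3 had r = 0.84 with the axotomy-induced genes, but it did not pass among the AJ rats alone. Among the members Map1b had the highest r with the neuron markers, 0.91, but it did not pass by rho. Stmn4, with a higher r of 0.88 with the axotomy-induced genes, had no matched window. Basp1 was the gene nearest to a change in mean level. The stretches before the start sites of Tubb3, Basp1 and Map1b are printed to set them beside each other. They are the 250 bases upstream of the RefSeq start in GRCr8, at chr19:68365437-68365686 (plus strand), chr2:77594298-77594547 (minus strand) and chr2:32644472-32644721 (minus strand). Capitals mark GGGCGG, the GC box, on either strand, and TATAAA, the TATA box, with overlapping matches joined.
Tubb3: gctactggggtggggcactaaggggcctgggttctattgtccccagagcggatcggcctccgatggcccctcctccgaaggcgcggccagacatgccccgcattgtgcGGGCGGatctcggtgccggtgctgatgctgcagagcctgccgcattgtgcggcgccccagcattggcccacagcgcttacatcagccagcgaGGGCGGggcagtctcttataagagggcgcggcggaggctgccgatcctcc
Basp1: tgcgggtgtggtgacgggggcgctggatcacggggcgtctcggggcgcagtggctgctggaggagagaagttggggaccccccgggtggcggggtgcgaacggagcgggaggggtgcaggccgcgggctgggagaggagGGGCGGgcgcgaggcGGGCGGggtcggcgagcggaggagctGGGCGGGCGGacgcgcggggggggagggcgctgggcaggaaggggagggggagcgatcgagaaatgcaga
Map1b: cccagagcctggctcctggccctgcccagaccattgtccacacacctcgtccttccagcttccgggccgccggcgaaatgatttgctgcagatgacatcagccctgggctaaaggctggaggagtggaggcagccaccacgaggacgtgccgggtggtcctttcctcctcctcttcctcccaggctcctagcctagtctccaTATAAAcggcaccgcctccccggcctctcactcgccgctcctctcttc
Windows were matched for 5 of 10 genes (Basp1, Dpysl3, Crmp1, Tubb3 and Map1b). GGGCGG stood in those of Basp1, Dpysl3, Crmp1 and Tubb3, and in 30.5% of all 33469 windows of this length. TATAAA stood in that of Map1b, and in 12.9% of all windows. TGANTCA, the AP-1 motif, was found in 6.34% of all windows and TGACGTCA, the cyclic AMP response element, in 1.59%, and these letters are in none of the matched member windows. Both strands were searched, and a match is a description of the letters.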

How the data were processed

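RNA of 19 single T11 ganglia was hybridised to Affymetrix rat arrays, 1 array per rat, and a further naive array removed by the submitters was not analysed here. Per probe set, the authors deposited 1 log2 level per array, made with RMA and tested with limma, per the submitters' processing notes, with versions not given in the sources used here. RMA gives the probe intensities of all arrays 1 distribution before it summarises them per probe set. A shift of most transcripts would thus be hidden, and levels of different probe sets are not compared.

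Of 31099 probe sets, 57 controls were left out, and 20826 had 1 gene symbol. Group differences came from limma 3.58.1 under R 4.3.3 (lmFit and eBayes, 3 groups in 1 fit, no filter on low values, threshold 0.05), and 16 of the 19 member probe sets had a mean above 6. For each gene the text leads with the probe set of highest mean. Relations between genes used deviations from group means and 100000 shuffles within groups, or every order within groups where 7 arrays entered, two-sided, in Python 3.11.15. The test was checked on simulated data. Promoter windows came from RefSeq (GRCr8).

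All members are named, and from each related list and the axotomy-induced list the genes with the highest and lowest day 14 difference. The members, the gene lists and the relations were chosen with earlier results of these data known. Same-numbered replicates did not deviate together (correlations from -0.259 to 0.329), so numbers were not taken as pairs. Alternatives were array scaling and weights, 1 value per gene, blocks, covariates, left-out arrays and a threshold of 0.1.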

Additional observations from a re-analysis of the deposited data

Results flagged for a closer look

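In 9 of the 84 groups of values examined, 1 rat stood apart from the rest of its group, where chance gives about 4.2. On day 14 replicate 3 had the lowest Map1b level, 13.66 against 13.79 in the next rat, the lowest Mapt level, 12.19 against 12.29, and the lowest neuron marker mean, 11.17 against 11.35. The same rat had the highest Stmn4 and Gap43 levels of its group. On day 7 replicate 7 had the highest Map1b level, 13.90 against 13.75. The low-signal Gap43 probe set was lowest in day 7 replicate 7, at 3.60 against 3.91, and highest in naive replicate 2, at 4.16 against 3.90.

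Skeletal muscle markers stood apart in day 14 replicate 2, with a mean of 8.76 against 6.97 in the next rat, in day 7 replicate 7, with 10.02 against 8.04, and in naive replicate 1, with 10.53 against 7.31.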

How the results depend on the processing

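The count of member probe sets past the threshold was 0 under all 139 combinations of comparison and alternative, including the replicate block. Of 2441 single member differences under an alternative, 2424 moved by less than the SD between replicates and 17 by more, all of them with the animal codes as a block or the rats of 1 code alone. The smallest adjusted p was 0.0892, for Basp1 on day 14 without day 14 replicate 7. On day 14 Stmn4 ranged from 0.32 without day 14 replicate 3 to 1.06 with the animal code block, Gap43 from 0.07 to 0.21 with that block, and Basp1 from 0.22 to 0.35.

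The count over all probe sets depended far more on the setting. On day 14 against naive, 43 became 28 after renewed quantile scaling, 76 with array weights, 13 with the 2 groups alone, 20 with 1 probe set per gene, 14 with gene means, 9 with the replicate block, 0 with the animal code block and among AJ rats alone, 138 with a muscle covariate, 402 with a neuron covariate, 12 without the muscle-high arrays and 729 at an adjusted p of 0.1. Leaving out 1 array gave 5 to 401, with the highest count without naive replicate 1. For both days together, 6 became 10 after renewed quantile scaling, 2 with 1 probe set per gene, 3 with gene means, 0 with the replicate block, with the animal code block and without the muscle-high arrays, 15 with a muscle covariate, 22 with a neuron covariate, 47 at an adjusted p of 0.1 and 3 to 115 without 1 array. On day 7 against naive, 0 became 2 among AJ rats alone, 1 with a 3' over 5' covariate and 0 to 2 without 1 array. Between the days, 0 became 1 with the animal code block, among AJ rats alone and with each covariate, and 0 to 3 without 1 array, and the median member difference of 0.05 became -0.0190 among AJ rats alone. The cause was not tested. The AJ and muscle settings were chosen after seeing the data.

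Leaving out 1 array moved the median member difference between 0.07 and 0.11 on day 14, 0.00358 and 0.0407 on day 7, 0.04 and 0.07 between the days and 0.04 and 0.08 for both days together. Probe sets of low signal (Gap43, Tubb3 and Basp1 second probe sets) limit what their differences can show.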
